A study of Petunia x hybrida with 48 samples.

Results

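The subject here is a set of 149 petunia genes that basal axillary bud 2 in both experiments, and bud 3 in experiment 1, held far above apical buds 6 and 7. They are called the basal-bud genes below, though bud 3 of experiment 3 had much less of them than bud 2. They were chosen by their measured values, from 32828 genes present in the tables of both experiments. A gene had to have a mean normalized count of at least 50 over the libraries of experiment 1, and a bud 3 mean there between 0.5 and 2 times the bud 2 mean in both phosphate (P) treatments, which left 18821 genes. These were scored by the smallest log2 ratio, over both experiments and both P treatments, of the bud 2 mean to the larger of the bud 6 and bud 7 means, each with 1 added. The 150 highest were taken, and 1 of them was among 4 genes that the rule sets aside. The other 3 set aside had not passed, since their bud 3 mean in experiment 1 was between 0.115 and 0.317 of the bud 2 mean.

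The material was axillary buds of Petunia hybrida V26 grown in hydroponic medium, collected at nodes 2, 3, 6 and 7 of the main stem, counted from the base. In experiment 1 plants grown in high P (250 µM) were moved for 24 h to low P (5 µM) or to fresh high P. In experiment 3 plants grown in low P were moved for 24 h to high P or to fresh low P. Each of the 16 groups of experiment, bud and P treatment had 3 replicates, and each replicate was a pool of buds from several plants, so p-values measure the spread between pools. Plants shared containers of solution, and the paper does not say which container each pool came from. A difference between P treatments could therefore not be told apart from a difference between containers. All groups were of this 1 line, with no other genotype compared.

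Axillary buds form in leaf axils and can grow into branches or stay arrested. In petunia, buds 2 and 3 near the base usually stay small, while buds 6 and 7 grow out when nutrients allow. Arrested buds of many species are known for low cell division and for transcripts tied to abscisic acid (ABA), ethylene, defence, storage and sugar shortage, and growing buds for histone and cell cycle transcripts.

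Deposited values were counts normalized within each experiment, so levels were compared within an experiment only. Library totals were 39733086 to 46381919 normalized counts in experiment 1 and 82964169 to 95608712 in experiment 3. One library stood apart from its group. In experiment 3, the library labelled low P bud 3, replicate 3 had 85 histone and cell cycle genes at a median of -0.21 on the log2 scale from the low P bud 2 mean, where replicates 1 and 2 had medians of 2.39 and 1.72. It was also near bud 2 in the 149 genes, and whether its label is right was not tested. The main counts and medians that use low P bud 3 are given with and without it, and so are the calls of named genes that change.

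In experiment 1, both basal buds held the 149 genes and both apical buds had little of them. After the move to low P the median of the gene means was 629 normalized counts for bud 2 and 373 for bud 3, against 10.5 for bud 6 and 10.6 for bud 7. In constant high P the medians were 515 for bud 2 and 398 for bud 3, against 7.27 for bud 6 and 8.62 for bud 7. These values chose the genes and are given as a description. A usable description was found for 65 of the genes and for 84 none was, in those annotation tables of the study that were used here, and the genes lay on 130 scaffolds of the genome assembly, at most 3 on any 1 scaffold.

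In experiment 3, the bud 3 libraries had not been used in the choice, and there the description of genes held by both basal buds did not hold. The median of the gene means was 122 normalized counts in bud 3 against 773 in bud 2 after the move to high P, and 275 in bud 3 against 750 in bud 2 in low P. In whole buds, fewer cells of a type and less RNA per cell cannot be told apart. High P bud 3 was at a median of 16.7% of bud 2 and low P bud 3 at 36.0%. The medians in experiment 1 were 63.7% after the move to low P and 75.3% in constant high P. The rule limited the ratio of bud 3 to bud 2 in experiment 1 only, so the experiment 1 percentages could not be low. It also favoured high bud 2 means in experiment 3. The contrast of percentages between the experiments is therefore a description, and how much of it came from the choice was not tested. Without low P bud 3 replicate 3, low P bud 3 had a median of 151 normalized counts and was at 18.8% of bud 2. The mean of bud 3 was above those of both buds 6 and 7 for 145 of the 149 genes under high P and for all 149 under low P (146 without replicate 3), a description only, since low apical means chose the genes. Under high P the apical medians were 27.6 for bud 6 and 17.3 for bud 7, and under low P they were 58.7 for bud 6 and 30.1 for bud 7.

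**Figure D1:**
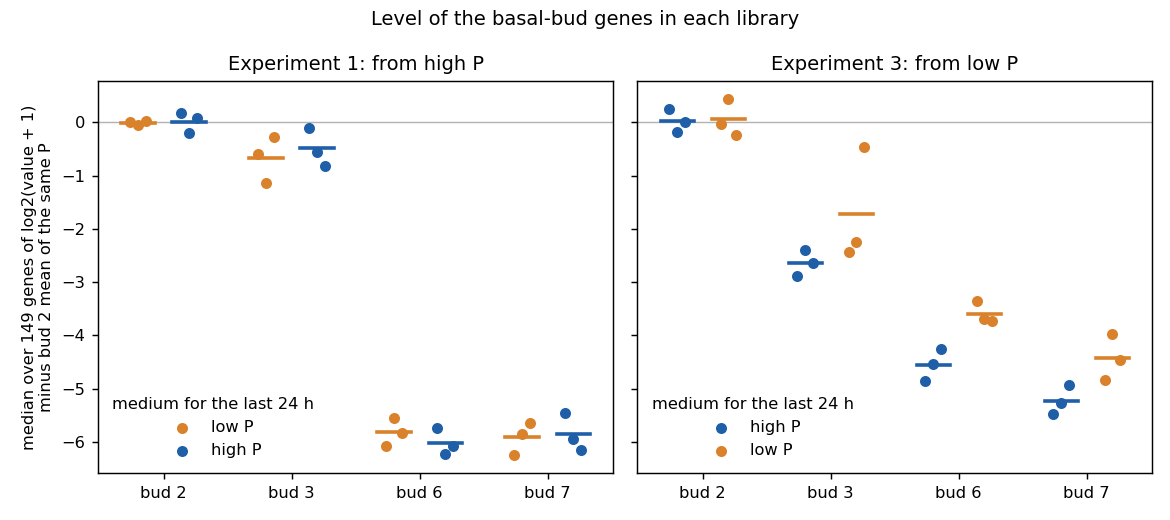
Median over the 149 genes of log2(value + 1) in each of the 48 libraries, minus the bud 2 mean of the same experiment and P treatment, by bud, with points for libraries and lines for the means of 3. Bud 3 libraries lay between -1.15 and -0.11 in experiment 1 and between -2.89 and -0.46 in experiment 3, where the highest was low P replicate 3.

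The genes with the highest scores were very low in apical buds. The first was a cysteine proteinase, Peaxi162Scf00483g00321.1, an enzyme class that breaks down proteins, with a score of 7.01. In experiment 1 it had 4297, 1836 and 4069.7 normalized counts in low P bud 2 and 3032, 589 and 2053 in high P bud 2, and it was listed at 0 in all 3 high P bud 6 libraries and all 3 of high P bud 7. A score against a value of 0 depends on the 1 that was added. A second cysteine proteinase, Peaxi162Scf01342g00005.1, had 3796, 1604 and 3491 in low P bud 2 and at most 2.51 in any apical library of experiment 1. Both match the same Arabidopsis protein best, so the counting could have split reads between them.

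A pair of beta-1,3-glucanases on scaffold Scf00032, enzymes that cut callose and fungal walls, scored 5.38 (Peaxi162Scf00032g00102.1) and 5.30 (Peaxi162Scf00032g00106.1). The first had 21059, 14519 and 17212 normalized counts in low P bud 2 of experiment 1 and 9521, 3586 and 13615 in low P bud 3, while its low P bud 6 libraries had 61, 84.3 and 35. The pair share a best match in tobacco, so their reads could also have been split. The other genes among the 12 highest were non-specific lipid-transfer protein 2, a carrier of lipids outside the cell, with a score of 5.03, and 7 genes without a description. These were Peaxi162Scf00152g01120.1 (6.59), Peaxi162Scf00381g00221.1 (6.10), Peaxi162Scf00005g02513.1 (5.82), Peaxi162Scf29894g00004.1 (5.70), Peaxi162Scf00528g00078.1 (5.45), Peaxi162Scf00062g00928.1 (5.31) and Peaxi162Scf00683g00460.1 (5.14).

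Scores ran down to 2.80 with a median of 3.49, and for 129 of the 149 genes the smallest ratio was that of low P in experiment 3. The last 3 kept were Peaxi162Scf00014g00025.1 at 2.83, and Peaxi162Scf00111g00316.1 and Peaxi162Scf00420g00049.1, both at 2.80. The next 3 below were Peaxi162Scf00169g00220.1 at 2.79, Peaxi162Scf00374g00022.1 at 2.79 and Peaxi162Scf00767g00033.1, a SAUR-like auxin-responsive gene, at 2.78. The values just inside and just outside the edge of the set were thus nearly the same.

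Levels within the set varied widely, with bud 2 means between 89.9 and 214537 in low P of experiment 1. The most abundant, named after its values were seen, was a BURP domain protein, Peaxi162Scf00799g00412.1, of the class of the Arabidopsis dehydration gene RD22, with 203765, 230262 and 209582 normalized counts in low P bud 2 of experiment 1 and 3160.1, 6051 and 5732 in low P bud 6. An acidic endochitinase, Peaxi162Scf00403g00840.1, which cuts fungal chitin, had 121976, 77918 and 95908 in low P bud 2 and 489.6, 1334 and 868 in low P bud 6. The 149 genes together made up 1.47% to 1.71% of normalized counts in bud 2 libraries of experiment 1, 0.82% to 1.46% in bud 3 and 0.0139% to 0.0408% in buds 6 and 7. In experiment 3 the BURP gene had 167440.0, 141225 and 1003180.0 in low P bud 3, against 849188, 865827 and 886909 in low P bud 2, so replicate 3 of bud 3 was above every bud 2 pool.

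Bud 3 was set against bud 2 within each P treatment of experiment 3. A call needed a limma difference past 2-fold and an adjusted p under 0.05 over all 22584 genes tested, on log2(value + 1), a scale that understates the change of low values. After the move to high P, 139 of 149 genes were lower in bud 3 than in bud 2 and none was higher, where 17.5% of all genes tested were called lower. The median change was -2.67 on the log2 scale, against -0.04 over all genes tested, and all 149 changes were negative. In low P, 104 were lower and none higher, where 8.97% of all genes were called lower, with a median of -1.74 against -0.02 over all genes. The bud 2 libraries in this comparison helped choose the genes, and the bud 3 libraries did not.

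The replicates of high P bud 3 were alike in this. Their medians over the 149 genes were -2.89, -2.41 and -2.64 from the high P bud 2 mean, and for 139 genes all 3 bud 3 pools were below all 3 bud 2 pools. The share of all genes without such overlap was not counted, and the bud 2 pools helped choose the genes, so the 139 are a description. The low P bud 3 pools were not alike, with -2.44 and -2.24 in replicates 1 and 2 and -0.46 in replicate 3. Without replicate 3 the median change in low P was -2.37 and 134 genes were called lower, where 16% of all genes were, and without replicate 1 or 2 the counts were 19 and 43. A fit to the 6 low P libraries compared called none of them.

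**Figure D2:**
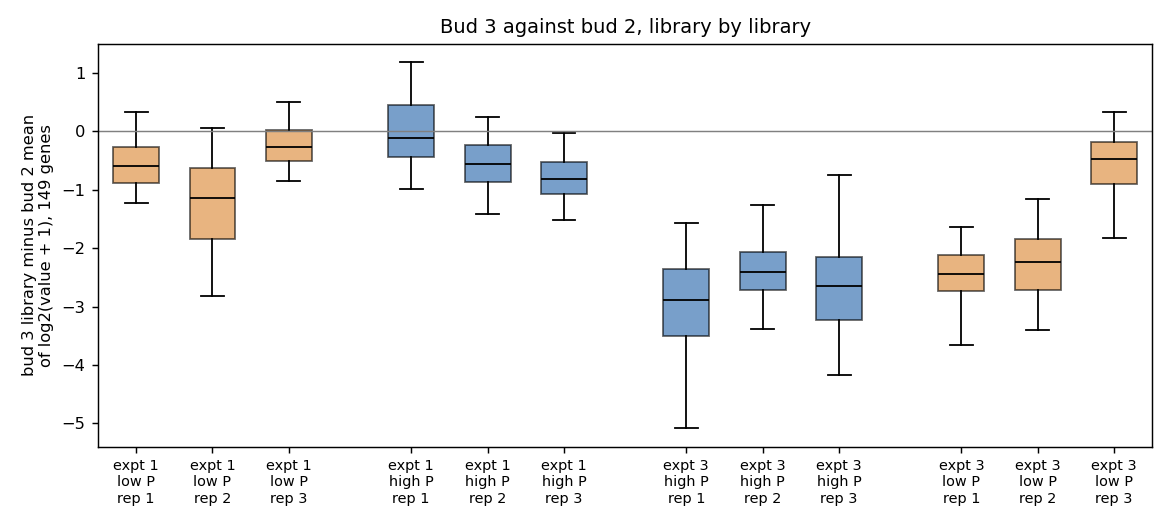
Each box covers the 149 genes in 1 of the 12 bud 3 libraries, as log2(value + 1) minus the bud 2 mean of the same experiment and P treatment, with the median as a line, quartiles as the box and 5th to 95th percentiles as whiskers. Medians were -0.11 to -1.15 in experiment 1, -2.41 to -2.89 in high P of experiment 3, and -2.44, -2.24 and -0.46 in its low P replicates 1, 2 and 3.

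Markers of other cell types also differed between the buds. In experiment 1, 85 of 85 histone and cell cycle genes, which mark dividing cells, had library medians of 2.39 to 2.93 above the bud 2 mean in buds 6 and 7, and -0.46 to 0.30 in bud 3. In experiment 3 they were at 1.33 to 1.80 in high P bud 3, 1.66 to 1.81 in high P buds 6 and 7, 2.39, 1.72 and -0.21 in low P bud 3, and 1.50 to 2.19 in low P buds 6 and 7. Low P bud 3 replicate 3 was thus near bud 2 in both sets of genes. In high P bud 3 of experiment 3, 9 photosynthesis genes of leaf mesophyll had medians of 1.08 to 1.92 above bud 2, 15 xylem wall genes of vascular tissue -1.53 to -0.96, and 33 lipid transfer and cuticle genes of the epidermis, with members left out, -1.05 to -0.90. Summed levels of the 85 were 1214201 to 1687182 in high P bud 3, against 398540 to 427049 in high P bud 2, and none of the 85 was at 0 throughout a group. The photosynthesis genes summed to 144142 to 252135 in high P bud 3, against 67248 to 82584 in high P bud 2. The xylem genes summed to 16975 to 19340 in high P bud 3, against 16317 to 27688 in high P bud 2, and the epidermis list to 272651 to 339713 in high P bud 3, against 128270 to 142890 in high P bud 2, so that the sum and the median of the last list differed in direction. Their part in the difference between bud 3 and bud 2 was not tested. The marker lists came from tables that hold results of these data, so the values here are a description.

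**Figure D3:**
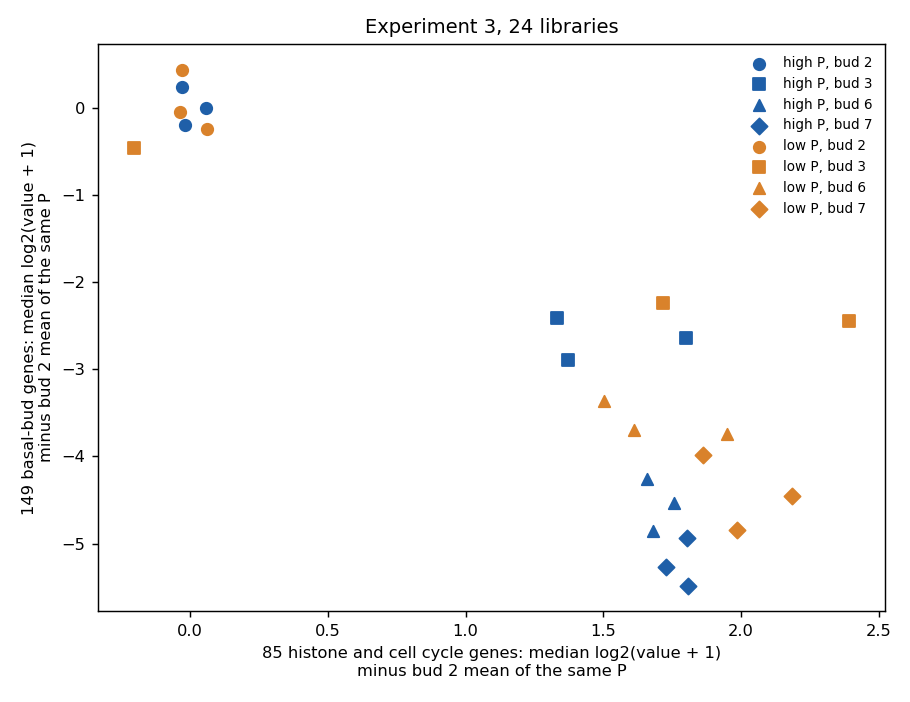
Experiment 3, with 1 point per library. The horizontal axis is the median of 85 histone and cell cycle genes and the vertical axis the median of the 149 basal-bud genes, both as log2(value + 1) minus the bud 2 mean of the same P treatment. Both lists were chosen with results of these data known. Low P bud 3 replicate 3 lies at -0.21 and -0.46 beside the bud 2 libraries, and the other bud 3 libraries lie at -2.24 to -2.89 on the vertical axis, below bud 2 and above buds 6 and 7.

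Members with a description, and a NAC072 homolog without one, were grouped by role after their values were seen. Counts by role are descriptive, since 93.3% of the whole set was called lower in high P bud 3 and 69.8% in low P bud 3. Of the 10 described defence members all were called lower in high P bud 3, with a median log2 of -2.43, and 8 in low P bud 3, with and without its replicate 3. The thaumatin-type pathogenesis-related protein Peaxi162Scf00714g00017.1 had 994, 1504 and 1893 in high P bud 3, against 12643, 9541 and 9286 in high P bud 2 (log2 -2.88, SE 0.47, adjusted p = 0.000113 by limma). The pools of bud 3 were all below those of bud 2. The acidic endochitinase had 9220.1, 12803 and 22233 in high P bud 3, against 88278, 50221 and 67019.6 in high P bud 2 (log2 -2.27, SE 0.50, adjusted p = 0.000898). The glucanase Peaxi162Scf00032g00102.1 had 1556, 1276 and 4573 in high P bud 3, against 10379.7, 3985 and 7347 in high P bud 2 (log2 -1.69, SE 0.59, adjusted p = 0.0176), and bud 3 replicate 3 was above the lowest bud 2 pool. In low P the same glucanase had 2066, 6716 and 7645 in low P bud 3, against 6285, 17608 and 5912 in low P bud 2, which was not called (log2 -0.87, SE 0.59, adjusted p = 0.224), also without replicate 3.

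Lipid-transfer proteins carry lipids between membranes or to the cell surface. Non-specific lipid-transfer protein 2 had 65, 198 and 34 in high P bud 3, against 1153, 1479 and 892 in high P bud 2 (log2 -3.90, SE 0.69, adjusted p = 0.00019), and its low P difference was not called (log2 -1.70, SE 0.69, adjusted p = 0.0515) but was without replicate 3 (log2 -2.09, SE 0.75, adjusted p = 0.0216). A second lipid-transfer gene, Peaxi162Scf00102g01140.1, had 399, 528 and 757 in high P bud 3, against 5526, 3249 and 5211 in high P bud 2 (log2 -3.06, SE 0.44, adjusted p = 5.13e-05). Every bud 3 pool was below every bud 2 pool for both. A late embryogenesis abundant (LEA) protein, Peaxi162Scf00500g00067.1, of a class that protects cells during drying, had 75.3, 104 and 34.8 in high P bud 3, against 1058, 766 and 355 in high P bud 2 (log2 -3.33, SE 0.98, adjusted p = 0.0068). A class I heat shock protein, Peaxi162Scf00132g00085.1, which helps keep proteins folded, had 974, 1936 and 528 in high P bud 3, against 9811, 8907 and 9727 in high P bud 2 (log2 -3.24, SE 0.47, adjusted p = 5.44e-05). Both protective proteins were lower in every bud 3 pool than in any bud 2 pool. The peroxidase Peaxi162Scf00732g00451.1, of a family that acts on wall phenolics, had 1925, 3451 and 2283 in high P bud 3, against 20937, 19793 and 23478 in high P bud 2 (log2 -3.11, SE 0.50, adjusted p = 0.000103). The glutathione S-transferase TAU 19 gene Peaxi162Scf00000g00582.1, a detoxifying enzyme, had 285, 324 and 237 in high P bud 3, against 2446, 2188 and 2084 in high P bud 2 (log2 -2.99, SE 0.42, adjusted p = 4.33e-05). Bud 3 and bud 2 pools did not overlap for either enzyme.

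The 6 described transporters were all called lower in high P bud 3, where 17.5% of all genes and 93.3% of the set were. In low P bud 3 it was 5 of them, and 6 without replicate 3. An EamA-like transporter, Peaxi162Scf00119g01534.1, had 32.6, 99.1 and 30.6 in high P bud 3, against 855, 951 and 1337 in high P bud 2 (log2 -4.44, SE 0.68, adjusted p = 7.58e-05). Phosphate transporter 1, Peaxi162Scf00680g00638.1, a carrier of phosphate into cells, had 8.99, 56.7 and 25.5 in high P bud 3, against 306, 266 and 391 in high P bud 2 (log2 -3.68, SE 0.63, adjusted p = 0.000165), and its low P difference was not called (log2 -1.57, SE 0.63, adjusted p = 0.0511) but was without replicate 3 (log2 -2.07, SE 0.67, adjusted p = 0.0123). The pools did not overlap in high P for either gene. Named here after their values were seen, the amino acid transporter LHT1 (Peaxi162Scf00420g00350.1) had 315, 413 and 411 in high P bud 3, against 3154, 2104 and 2272 in high P bud 2. The hexose carrier STP13 (Peaxi162Scf00437g00320.1) had 789, 876 and 699.8 in high P bud 3, against 6035, 4497 and 4997 in high P bud 2. Both were called lower by limma (adjusted p = 0.000147 for LHT1 and 0.000234 for STP13).

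**Figure D4:**
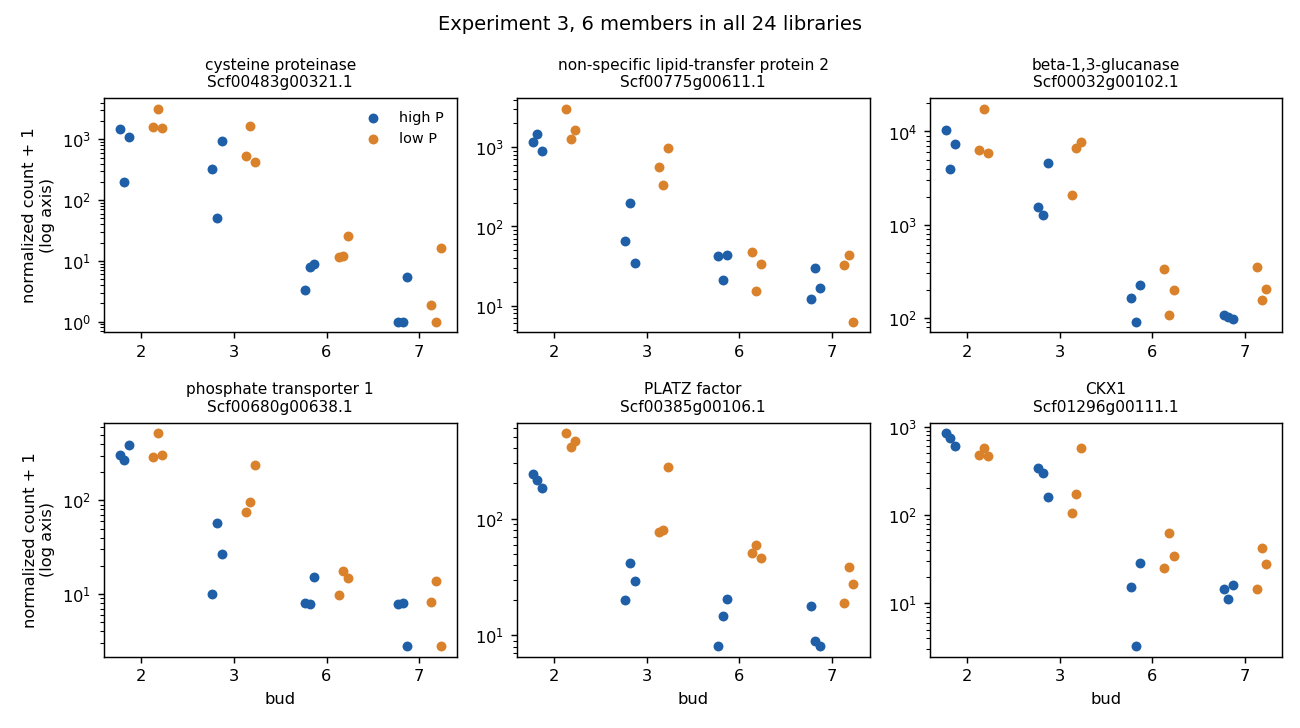
Normalized counts plus 1 on a log axis for 6 of the 149 genes in the 24 libraries of experiment 3, by bud, with high P left of low P and 1 point per library. In 5 of the 6 panels, all but the cysteine proteinase, the high P bud 3 points have a mean called lower than that of high P bud 2, and the low P bud 3 point of replicate 3 is the highest of its group in 5 panels.

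The 6 described receptors and signalling proteins were called lower in both P treatments, with medians of -2.57 under high P and -1.74 under low P (-2.40 without replicate 3). Of the 5 transcription factors grouped by role 4 were called lower in high P bud 3 and 5 in low P bud 3, with and without replicate 3. Receptor-like protein kinase 1, Peaxi162Scf00895g00211.1, had 270.1, 336 and 435 in high P bud 3, against 2546, 1511 and 1927 in high P bud 2 (log2 -2.51, SE 0.59, adjusted p = 0.00135). A leucine-rich repeat receptor kinase, Peaxi162Scf00041g01422.1, had 122, 232 and 454 in high P bud 3, against 1435, 670.0 and 1248 in high P bud 2 (log2 -2.18, SE 0.80, adjusted p = 0.0241). The cysteine-rich receptor kinase CRK21, Peaxi162Scf00347g00419.1, had 46.1, 66.5 and 60.2 in high P bud 3, against 442, 324 and 436 in high P bud 2 (log2 -2.78, SE 0.62, adjusted p = 0.00101). No bud 3 pool of these 3 reached a bud 2 pool. A protein phosphatase 2C, Peaxi162Scf00264g00414.1, from the class that holds the repressors of ABA signalling, had 338, 398 and 362 in high P bud 3, against 2099, 2227 and 2466 in high P bud 2 (log2 -2.63, SE 0.36, adjusted p = 4.30e-05), with the pools of each bud close together.

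Among the transcription factors, NAC3, Peaxi162Scf00000g00481.1, of a family active in stress and senescence, had 176, 197 and 207 in high P bud 3, against 885, 719.8 and 772 in high P bud 2 (log2 -2.02, SE 0.69, adjusted p = 0.0162). NAC1, Peaxi162Scf00232g01126.1, had 478, 365 and 192 in high P bud 3, against 1039.9, 867 and 956 in high P bud 2 (log2 -1.56, SE 0.53, adjusted p = 0.0165), and both were without overlap between the buds. The set also held 3 of 43 listed homologs of Arabidopsis bud dormancy genes. They were a PLATZ zinc-binding factor, a NAC072 homolog and HMG-CoA reductase 3, an enzyme of isoprenoid synthesis. The study listed homologs with raised transcripts in a basal bud of these same data, so membership in both is a description. The study's annotation calls the reductase only a possible dormancy gene, because its top match was not on the list. The PLATZ gene, Peaxi162Scf00385g00106.1, had 19.1, 40.6 and 28 in high P bud 3, against 238, 212 and 180.4 in high P bud 2 (log2 -2.86, SE 0.45, adjusted p = 9.17e-05). HMG-CoA reductase 3, Peaxi162Scf01393g00015.1, had 39.3, 24.3 and 113 in high P bud 3, against 492, 178 and 333 in high P bud 2 (log2 -2.66, SE 0.63, adjusted p = 0.00149). The NAC072 homolog, Peaxi162Scf00998g00126.1, of a gene induced by drought and ABA in Arabidopsis, had 10.1, 33.3 and 9.34 in high P bud 3, against 37.5, 36.6 and 108 in high P bud 2 and was not called (log2 -1.78, SE 0.91, adjusted p = 0.0924), though in low P bud 3 it was (log2 -2.51, SE 0.91, adjusted p = 0.0319). Its pools varied widely within groups, and in experiment 1 its high P bud 2 pools had 1041, 107 and 55.1.

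The pair of hormone enzymes had smaller differences. Cytokinin oxidase CKX1, Peaxi162Scf01296g00111.1, which breaks down cytokinin, had 344, 300.0 and 159 in high P bud 3, against 842, 747 and 603 in high P bud 2, a small difference that was called (log2 -1.51, SE 0.65, adjusted p = 0.0485). In low P it was not called (log2 -1.19, SE 0.65, adjusted p = 0.136), though without replicate 3 it was (log2 -1.88, SE 0.64, adjusted p = 0.0151). ACC synthase 9, Peaxi162Scf00381g00219.1, which makes the ethylene precursor, had 144, 109 and 137 in high P bud 3, against 356, 184 and 207 in high P bud 2 and was called in neither treatment (log2 -0.88, SE 0.53, adjusted p = 0.151 in high P), though in low P it was called without replicate 3 (log2 -1.65, SE 0.46, adjusted p = 0.00472). It was the smallest change of the 149 in high P, and its low P bud 3 pools had 53.4, 65.4 and 278.

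Besides ACC synthase 9 and the NAC072 homolog, 8 genes were not called lower in high P bud 3, with log2 changes between -2.05 and -1.29 and standard errors between 0.75 and 1.53. Both cysteine proteinases were among them. Peaxi162Scf00483g00321.1 had 323, 50.4 and 951 in high P bud 3, against 1478, 200.2 and 1105 in high P bud 2 (log2 -1.46, SE 1.07, adjusted p = 0.236). The other, Peaxi162Scf01342g00005.1, had 188, 66 and 692 in high P bud 3, against 969, 189 and 756 in high P bud 2 (log2 -1.33, SE 1.02, adjusted p = 0.257). In both genes the highest bud 3 pool was replicate 3 and the lowest bud 2 pool was replicate 2, so the buds overlapped. The rest were named after their values were seen. They were an AMP-dependent synthetase (Peaxi162Scf00521g00213.1), nudix hydrolase 2 (Peaxi162Scf00802g00122.1) and Peaxi162Scf00067g00254.1, described as a peripheral-type benzodiazepine receptor. The undescribed ones were Peaxi162Scf01342g00001.1, Peaxi162Scf00016g02435.1 and Peaxi162Scf46427g00001.1. Of the other pair of described proteases, aspartyl proteases, both were called lower, and Peaxi162Scf00900g00110.1 had 221, 302 and 97.6 in high P bud 3, against 2177, 1461 and 2464 in high P bud 2 (log2 -3.40, SE 0.51, adjusted p = 6.32e-05).

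Metabolic enzymes were mostly called, 11 of 12 in high P bud 3 and 6 in low P bud 3 (11 without replicate 3), beside 93.3% of the whole set in high P. A cytochrome P450, Peaxi162Scf00163g00115.1, had 601, 426 and 433 in high P bud 3, against 2389, 2259 and 2618 in high P bud 2 (log2 -2.33, SE 0.56, adjusted p = 0.00158). A second, Peaxi162Scf00015g00459.1, had 256, 362 and 124 in high P bud 3, against 1088, 1100.0 and 600.4 in high P bud 2 (log2 -1.98, SE 0.53, adjusted p = 0.00347). Members of this family oxidize hormones and secondary metabolites. The UDP-glycosyltransferase Peaxi162Scf00378g00112.1, which adds sugars to small molecules, had 275, 293 and 207 in high P bud 3, against 1150.2, 1169 and 1309 in high P bud 2 (log2 -2.23, SE 0.43, adjusted p = 0.000352). Wall-loosening members, named after their values were seen apart from expansin-like B1, were all 3 called lower in high P bud 3, and XTH32, Peaxi162Scf00892g00009.1, had 2419, 2403 and 1635 in high P bud 3, against 18809.8, 18483 and 24585 in high P bud 2 (log2 -3.27, SE 0.46, adjusted p = 4.79e-05). The largest fall by limma among all 149 was that of the undescribed Peaxi162Scf00528g00078.1, with 2.25, 64.7 and 12.7 in high P bud 3, against 728, 338 and 443 in high P bud 2 (log2 -5.06, SE 1.01, adjusted p = 0.000444). The next was Peaxi162Scf02157g00002.1 with 11.2, 27.1 and 0 in high P bud 3, against 230.0, 209.7 and 181 in high P bud 2 (log2 -4.89, SE 1.60, adjusted p = 0.0129). In low P the first of these had 11.1, 36.4 and 76.6 in low P bud 3, against 169, 669.9 and 369 in low P bud 2 (log2 -3.41, SE 1.01, adjusted p = 0.0136), and the next largest called was Peaxi162Scf00760g00218.1 (log2 -3.08, SE 1.21, adjusted p = 0.0449). Without replicate 3 both were still called, at log2 -4.03 for Peaxi162Scf00528g00078.1 and -4.22 for Peaxi162Scf00760g00218.1.

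The move to high P for 24 h was compared with constant low P in each bud of experiment 3. The means of buds 2, 6 and 7 in both P treatments entered the rule, and for 129 genes low P set the score, so the values of these 3 buds are a description. The bud 3 libraries were not used in the choice. In bud 3, 31 were lower in high P and none higher, where 4.95% of all genes tested were called lower, and the median change was -0.87 against -0.01 over all genes. In bud 6, 35 were lower and none higher, where 5.76% of all genes were lower, with a median of -0.83. In bud 7, 19 were lower and none higher, where 3.04% of all genes were lower, with a median of -0.77. In bud 2, none was lower and 1 was higher, where 1.56% of all genes were lower and 1.22% higher, and the median was 0.02. At an unadjusted p below 0.05 bud 2 had 5 genes lower and 3 higher, and with precision weights 5 lower and 4 higher were called there. The share of all genes was not counted for either. A fit to only the 6 bud 2 libraries called 10 lower and 6 higher, so that whether bud 2 had called changes depended on the fit. The 85 histone and cell cycle genes had medians of 1.33 to 1.80 above bud 2 in high P bud 3, against 2.39, 1.72 and -0.21 in low P bud 3, and their part in the P response was not tested. Without low P bud 3 replicate 3, only 8 genes were called lower in bud 3, where 1.36% of all genes were, and the median was -0.26, and a fit to the 6 bud 3 libraries called none. With precision weights, 15 were called in bud 6 and 4 in bud 7, where many of these genes had low values.

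**Figure D5:**
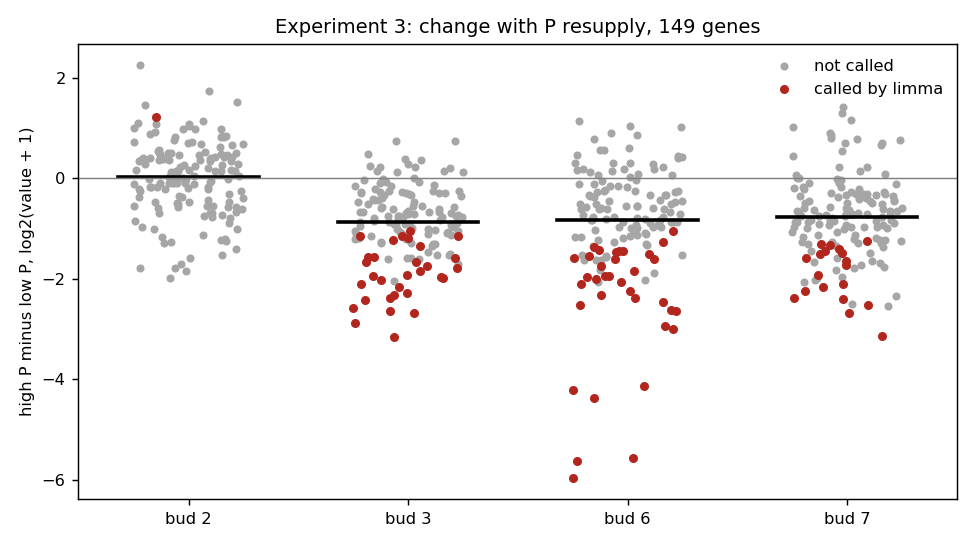
Change of each of the 149 genes with P resupply in experiment 3, as high P minus low P on log2(value + 1), by bud, with called genes in red and medians as lines. Medians were 0.02 for bud 2, -0.87 for bud 3, -0.83 for bud 6 and -0.77 for bud 7, and the called genes numbered 1, 31, 35 and 19. Without low P bud 3 replicate 3, which is not drawn apart, the bud 3 median was -0.26 and 8 genes were called.

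The response of bud 3, 6 or 7 was not called different from that of bud 2 for any gene. The test of the difference gave 0 of 149 for each of the 3 buds in limma and also with precision weights, where 0.0133%, 0.00443% and 0% of all genes were called for buds 6, 7 and 3. At an unadjusted p below 0.05, 19 genes differed for bud 6, 15 for bud 3 (2 without low P bud 3 replicate 3) and 12 for bud 7, all with a lower response than bud 2. The share of all genes at that threshold was not counted. The means of buds 2, 6 and 7 in both P treatments entered the rule, so these counts are a description. Medians of the difference were -0.88 for bud 6, -0.90 for bud 3 (-0.23 without that library) and -0.75 for bud 7. A difference between buds in the response to P was therefore not shown for any single gene.

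A total of 55 genes were called lower with high P in at least 1 of buds 3, 6 and 7, and 9 were called in all 3 buds. Without low P bud 3 replicate 3 these counts were 44 and 3, and the 3 were PLATZ, the EF-hand gene and the undescribed Peaxi162Scf00848g00118.1. The share of all genes was not counted for any of these. Since the rule used the means of buds 6 and 7, the counts are a description. The 9 included PLATZ, an EF-hand calcium-binding protein, ascorbate peroxidase 2, an amino acid transporter, an AMP-dependent synthetase, an elicitor-inducible protein and an alpha/beta-hydrolase, and of these all but PLATZ and the hydrolase were named after their values were seen. PLATZ had 19.1, 40.6 and 28 in high P bud 3, against 75.5, 78.6 and 274 in low P bud 3 (log2 -2.04, SE 0.45, adjusted p = 0.00632). It had 7.11, 13.6 and 19.5 in high P bud 6, against 49.6, 58.9 and 45.4 in low P bud 6 (log2 -1.95, SE 0.45, adjusted p = 0.00489), and in bud 2 it was not called (log2 -1.16, SE 0.45, adjusted p = 0.0952). The EF-hand gene Peaxi162Scf00170g00820.1 had 55.9, 76 and 55.4 in high P bud 3, against 198, 187 and 848 in low P bud 3 (log2 -2.33, SE 0.43, adjusted p = 0.00321). It had 24.9, 13.5 and 20.9 in high P bud 6, against 152, 107 and 119.7 in low P bud 6 (log2 -2.64, SE 0.43, adjusted p = 0.000515). High and low P pools were apart in both buds for both genes. Ascorbate peroxidase 2, Peaxi162Scf00005g00505.1, which removes hydrogen peroxide, had 245, 102 and 336 in high P bud 6, against 2498, 1574 and 1105 in low P bud 6 (log2 -3.00, SE 0.60, adjusted p = 0.00203). Its high P bud 2 pools had 4662, 5776 and 5907, all below the low P bud 2 pools at 29771, 15146 and 14307, though the call was missed (log2 -1.78, SE 0.60, adjusted p = 0.0569). The alpha/beta-hydrolase Peaxi162Scf00049g01720.1 had 27.3, 19.7 and 32.8 in high P bud 7, against 108, 62.4 and 103 in low P bud 7 (log2 -1.72, SE 0.52, adjusted p = 0.0295).

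In bud 3 the largest changes with high P were those of the EamA-like transporter and non-specific lipid-transfer protein 2. The EamA-like transporter had 32.6, 99.1 and 30.6 in high P bud 3, against 325, 228 and 1036 in low P bud 3 (log2 -3.17, SE 0.68, adjusted p = 0.00581). Lipid-transfer protein 2 had 65, 198 and 34 in high P bud 3, against 558, 337 and 984 in low P bud 3 (log2 -2.89, SE 0.69, adjusted p = 0.00783). Without low P bud 3 replicate 3 the transporter was still called (log2 -2.53, SE 0.70, adjusted p = 0.0369 by limma), as were PLATZ (log2 -1.43, adjusted p = 0.0398), the EF-hand gene (log2 -1.62, adjusted p = 0.00808) and 5 others, and the lipid-transfer protein was not. In bud 6 neither was called (log2 0.28 for the EamA-like transporter and 0.23 for the lipid-transfer protein). Phosphate transporter 1 had 8.99, 56.7 and 25.5 in high P bud 3, against 74.6, 95.4 and 239 in low P bud 3 (log2 -2.28, SE 0.63, adjusted p = 0.0157), and its bud 2 value was log2 -0.17, not called. Protein phosphatase 2C had 338, 398 and 362 in high P bud 3, against 439, 618 and 1961 in low P bud 3 (log2 -1.15, SE 0.36, adjusted p = 0.0278). Neither of these last 2 was called without low P bud 3 replicate 3.

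In bud 6 the LEA gene was listed at 0 in all 3 high P pools, against 80.8, 145 and 19.7 in low P bud 6 (adjusted p = 0.000561 by limma), and no fold is given. Expansin-like B1, Peaxi162Scf00301g00312.1, had 1.18, 0 and 3.9 in high P bud 6, against 112, 239.9 and 47.3 in low P bud 6 (log2 -5.64, SE 0.81, adjusted p = 0.000208). Since the rule used the means of buds 2, 6 and 7, the calls and p-values given here for these buds are a description. The 5 transcription factors grouped by role were called lower with high P in bud 6, where 23.5% of the set and 5.76% of all genes were. With precision weights 15 genes of the set were called there, against 35 in the main fit. NAC3 had 9.47, 20.4 and 22.1 in high P bud 6, against 215, 74.4 and 75 in low P bud 6 (log2 -2.63, SE 0.69, adjusted p = 0.00958). NAC1 had 21.3, 35.2 and 41.6 in high P bud 6, against 167, 101 and 45.3 in low P bud 6 (log2 -1.51, SE 0.53, adjusted p = 0.0414), and the 2 treatments did not overlap for either. CKX1 had 14.2, 2.27 and 27.3 in high P bud 6, against 24.3, 61.1 and 33.5 in low P bud 6 (log2 -1.76, SE 0.65, adjusted p = 0.0488), with 1 high P pool above the lowest low P pool. ACC synthase 9 had 4.73, 5.69 and 7.79 in high P bud 6, against 26.3, 22.2 and 29.5 in low P bud 6 (log2 -1.95, SE 0.53, adjusted p = 0.0115). In bud 7 the largest were Peaxi162Scf00481g00048.1, undescribed, with 14.8, 10.2 and 18.6 in high P bud 7, against 113, 173 and 120.5 in low P bud 7 (log2 -3.15, SE 0.64, adjusted p = 0.00395), and expansin-like B1 (log2 -2.68, SE 0.81, adjusted p = 0.0297). The 1 gene that was higher with high P in bud 2 was the undescribed Peaxi162Scf00378g00215.1, with 727, 1013 and 732 in high P bud 2, against 426, 342 and 291 in low P bud 2 (log2 1.22, SE 0.39, adjusted p = 0.0471).

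In experiment 1, the move to low P for 24 h was followed by no called change in any bud. By limma 0 of 149 genes were called in each of buds 2, 3, 6 and 7, where 0.0134%, 0.00447%, 0.00447% and 0% of the 22363 genes tested were called, and precision weights also gave 0. The means of these buds in both P treatments entered the rule, so the values here are a description. An unadjusted p below 0.05 was found for 7 genes of bud 2, 1 of bud 3, 30 of bud 6 and 12 of bud 7, and all 30 of bud 6 were higher in low P. The share of all genes at that threshold was not counted, so nothing is concluded from these numbers. Median changes were 0.37 for bud 2, 0.16 for bud 3, 0.43 for bud 6 and 0.19 for bud 7. HMG-CoA reductase 3 had 511, 576 and 745 in low P bud 2, against 284, 106 and 312 in high P bud 2, without overlap and not called. Pools of 1 group could differ as much, and the glucanase Peaxi162Scf00032g00106.1 had 29348, 8988 and 7754 in high P bud 3.

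The gap between bud 6 and bud 2 in experiment 3 was part of the rule and is not a result. A list chosen by the same rule in experiment 1 alone, again of 149 genes, leaves experiment 3 unused. It shared 99 genes with the set, 66.4% of each list, and 147 were tested in experiment 3. In high P, 145 of 147 were called lower in bud 6 than in bud 2 and none higher, where 18.8% of all genes were called lower, with a median log2 of -4.53. In low P, 132 were lower in bud 6 and none higher, where 13.4% of all genes were called lower, with a median of -3.38. Bud 3 of experiment 3 was called lower than bud 2 for 133 of 147 genes in high P. The median was -2.60, and 17.5% of all genes were called lower. In low P it was 82 of 147, with a median of -1.67, where 8.97% of all genes were called lower. The last count was 116 without low P bud 3 replicate 3, with a median of -2.26, where 16% of all genes were called lower. It was 12 without replicate 1 and 30 without replicate 2. With the move to high P, 28 of the 147 were called lower in bud 3, 39 in bud 6 and 24 in bud 7. Their medians were -0.80, -1.10 and -0.97, and 4.95%, 5.76% and 3.04% of all genes were called lower there. Without low P bud 3 replicate 3, 5 were called lower in bud 3, with a median of -0.25, where 1.36% of all genes were. In bud 2 none was lower and 1 was higher, where 1.56% of all genes were lower and 1.22% higher.

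Other genes of the same families were counted beside the set. In high P bud 3 against bud 2, 22 of 24 other peroxidases were called lower and 1 higher, with a median of -2.57, where 17.5% of all genes were called lower. Of 9 other NAC genes 7 were lower and 1 higher, of 12 other pathogenesis-related and chitinase genes 8 were lower and 1 higher, and of 12 other ethylene synthesis genes 8 were lower. Of 40 other dormancy homologs 20 were lower, with a median of -1.20, and none was higher. Other lists were mixed. Of 40 other ABC and MATE transporters 19 were lower and 9 higher, of 122 other receptors and kinases 60 were lower and 14 higher, and of 23 other ethylene response genes 12 were lower and 6 higher. Of 44 other heat shock genes 9 were lower and 2 higher. Flavonoid genes, 6 lower and 5 higher of 14, and bHLH genes, 5 lower and 3 higher of 16, had medians of 0.00 and 0.05. Histone and cell cycle genes went the other way, with 67 higher and 1 lower of 85. Of 27 other phosphate starvation genes, which include carriers and phosphatases that plants induce when P is short, 24 were called lower with high P in bud 3 with a median of -1.79, where 4.95% of all genes were, and 19 with a median of -1.60 without low P bud 3 replicate 3. Of the 27, 10 were lower in high P bud 3 than in bud 2. These lists came from tables that hold results of these data and are descriptive.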

How the data were processed

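RNA of buds was sequenced in 48 petunia libraries. Per the labels, the authors used Trim Galore and FastQC on the reads, STAR for mapping and Salmon for quantification, with the Petunia axillaris genome as reference. The deposited values are a signal, counts per gene that the authors normalized with DESeq2 within each experiment, so they do not return whole reads and no count test was run. Read depth per library was not known from them, and the precision of each value is given by the 3 replicates of a group only.

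The 149 genes and all gene lists were chosen with earlier results of these data known. Columns were matched to samples by name. Values were tested as log2(value + 1) with limma 3.58.1 in R 4.3.3, as 8 group means over the 24 libraries of an experiment with a mean-dependent prior, for genes with a mean of at least 10. P-values were adjusted by Benjamini-Hochberg over all 22363 genes tested in experiment 1 and 22584 in experiment 3, and a gene was called past 2-fold and 0.05. All 149 genes passed the filter in both experiments. Tables and plots were made in Python 3.11.15 with pandas 2.3.3, numpy 2.4.6 and matplotlib 3.10.9, and the test was tried on simulated data first. Alternatives were a pseudocount of 5, no filter, precision weights, quantile normalization, a replicate block, fits to only the libraries compared and each library left out. The comparisons of bud 3 with bud 2 for the list of experiment 1 alone, the response terms of buds 3 and 7, and values by role, by list and by gene without low P bud 3 replicate 3 were added after seeing the data.

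Genes were named by score (the 12 highest, the 12 highest with a description, the 3 lowest kept and the 3 next below), by gene list (at most 4 per list) and by the 2 largest called changes per direction and comparison. Genes outside this were named after their values were seen. These are LHT1, STP13, XTH32, the BURP gene, ascorbate peroxidase 2, the EF-hand gene, the elicitor-inducible protein, an amino acid transporter, the AMP-dependent synthetases Peaxi162Scf00784g00010.1 and Peaxi162Scf00521g00213.1, nudix hydrolase 2 and Peaxi162Scf00848g00118.1. Also among them are Peaxi162Scf00067g00254.1 and the undescribed Peaxi162Scf01342g00001.1, Peaxi162Scf00016g02435.1 and Peaxi162Scf46427g00001.1, which were not called lower in high P bud 3. The grouping of members by role was also made after their values were seen.

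Whether replicate numbers pair samples was checked by correlating deviations from group means. In 1 of 12 comparisons, low against high P in bud 2 of experiment 1, every pair was over 0.1 (0.149, 0.198 and 0.310), and the replicate block called 0 genes there too. In high P of experiment 3, bud 3 against bud 2 had 0.0890, 0.0851 and 0.128, and bud 6 against bud 2 had 0.0216, 0.0811 and 0.135. There too each of the 3 replicates matched its own number best, so some pairing in these comparisons is not excluded.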

Additional observations from a re-analysis of the deposited data

How the results depend on the processing

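Over 18 results, 140 of 154 alternative fits other than those that leave out a library gave a count within 1.5 times the reported one. For the move to high P in bud 2, where 1 gene was called, a pseudocount of 5 gave 2, no filter 0, precision weights 9 (4 higher, 5 lower), quantile normalization 4 (1 higher, 3 lower) and a fit to only the libraries compared 16 (6 higher, 10 lower), so the larger share was lower in these 3 fits where the 1 reported was higher. In bud 3 (31 called) a fit to only the libraries compared gave 0. In bud 6 (35) precision weights gave 15. In bud 7 (19) a pseudocount of 5 gave 11, no filter 7, precision weights 4 and quantile normalization 8. For bud 3 against bud 2 in low P, only the libraries compared gave 0, for the set (104) and for the list of experiment 1 alone (82). In bud 6 of experiment 1, leaving out the high P replicate 1 libraries gave 1 in place of 0. The causes were not tested.

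Leaving out 1 library at a time gave 0 to 0 genes for the move to high P in bud 2, 8 to 54 in bud 3, 19 to 33 in bud 6 and 4 to 16 in bud 7. For bud 3 against bud 2 the range was 129 to 137 under high P and 19 to 134 under low P. For the list of experiment 1 alone it gave 117 to 132 and 12 to 116 there, and for bud 6 against bud 2 the range was 140 to 145 under high P and 125 to 135 under low P. In experiment 1 it gave 0 in buds 2 and 3 and 0 to 1 in buds 6 and 7, and 0 for the difference in response between buds. Libraries that moved a count by over 1.5 times were, for the P response, high P bud 3 replicate 3 (18), low P bud 3 replicates 1 (54) and 3 (8), high P bud 6 replicates 1 (20) and 2 (23), low P bud 6 replicates 1 (20) and 2 (19), high P bud 7 replicates 1 (6) and 2 (7), low P bud 7 replicates 2 (4) and 3 (12), and every bud 2 library (0). For bud 3 against bud 2 in low P they were bud 2 replicate 2 (55) and bud 3 replicates 1 (19) and 2 (43), and for the list of experiment 1 alone bud 2 replicates 1 (53) and 2 (36) and bud 3 replicates 1 (12) and 2 (30).

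With the replicate number as a block the counts were 138 for bud 3 against bud 2 in high P, 108 in low P, and 1, 31, 33 and 22 for the move to high P in buds 2, 3, 6 and 7, and no other count moved by over 1.5 times. A count of low values limits the apical buds, where 80 of 149 genes had a mean under 10 in high P bud 6 of experiment 1. Taking the 4 genes out before ranking kept 149 of 150 genes, and a level floor on buds 2 and 3 kept 133 of 149.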
